A study of Homo sapiens with 6 samples.

Results

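The genes described here are NFE2L2, which codes for the transcription factor NRF2, its inhibitor KEAP1, and 7 antioxidant genes known as NRF2 targets, measured in HCT116 cells that expressed the K29Q form or the wild-type form of PHF5A. The members were the rows of the deposited table whose gene symbol was 1 of 9 listed names (NFE2L2, KEAP1, SLC7A11, GCLC, GCLM, TXNRD1, SRXN1, NQO1 and HMOX1). Rows were matched by name, but the list itself was chosen with earlier results of these data known. All 9 were found, among 60675 gene IDs, and all 9 passed the filter for testing (3 or more libraries with 1 FPKM or more), as did 13261 genes in all. FPKM counts fragments relative to transcript length and to all mapped fragments, so levels can be compared between genes. HCT116 is an established human colon cancer cell line. In the K29Q cells (3 libraries, K29Q 1 to 3) the stably expressed PHF5A had a glutamine in place of a lysine. In the WT cells (3 libraries, WT 1 to 3) it was wild type. PHF5A is a subunit of the SF3B complex of the spliceosome, and glutamine is commonly used to mimic acetylated lysine. The labels do not say whether a group was 1 clone or a pool, nor whether its libraries came from separate cultures, so the p-values rest on library-to-library variation that may be only technical.

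NRF2 is held at a low level in unstressed cells by KEAP1, an adaptor of a CUL3 ubiquitin ligase that marks NRF2 for destruction. Oxidants and electrophiles modify cysteines of KEAP1, NRF2 then accumulates, pairs with a small MAF protein and binds antioxidant response elements in the promoters and enhancers of its targets. The control therefore acts largely on the NRF2 protein, and the RNA of the targets is a common readout of it. The targets fall into the glutathione branch (SLC7A11, GCLC, GCLM), the thioredoxin branch (TXNRD1, SRXN1), and quinone and heme breakdown (NQO1, HMOX1).

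Promoter sequences are shown because NRF2 is known to act through the response element, whose core was searched as TGACNNNGC on both strands. RefSeq promoters on GRCh38.p14, 250 bases before to 50 bases after a start site, were matched by symbol for 7 of the 9 genes (all but HMOX1 and SLC7A11), 10 promoters in all. The core was present in 4 of these 10, at 3 genes (GCLM, TXNRD1 and KEAP1), and in 13.3% of all 35116 promoters in the same table. A match is a run of letters and not a measured binding site. The promoters of GCLM (chr1:93909381-93909680, minus strand), of both TXNRD1 starts (chr12:104215529-104215828 and chr12:104286782-104287081, plus strand), of the KEAP1 start that held the core (chr19:10502722-10503021, minus strand) and of SRXN1 (chr20:653151-653450, minus strand) read as follows, 5′ to 3′ on the strand of the gene, with the core in capitals.
GCLM: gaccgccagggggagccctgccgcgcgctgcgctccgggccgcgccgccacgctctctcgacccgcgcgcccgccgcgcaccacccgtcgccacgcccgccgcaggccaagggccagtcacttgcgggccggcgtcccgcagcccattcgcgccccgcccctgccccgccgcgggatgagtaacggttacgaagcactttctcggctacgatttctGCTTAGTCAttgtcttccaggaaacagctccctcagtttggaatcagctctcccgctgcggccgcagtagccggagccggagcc
TXNRD1 start 1: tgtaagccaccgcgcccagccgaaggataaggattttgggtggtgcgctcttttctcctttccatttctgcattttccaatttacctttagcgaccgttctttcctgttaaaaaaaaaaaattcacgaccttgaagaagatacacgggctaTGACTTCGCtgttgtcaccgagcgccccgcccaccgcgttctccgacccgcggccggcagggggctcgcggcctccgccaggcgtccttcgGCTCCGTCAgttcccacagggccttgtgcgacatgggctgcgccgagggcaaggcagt
TXNRD1 start 2: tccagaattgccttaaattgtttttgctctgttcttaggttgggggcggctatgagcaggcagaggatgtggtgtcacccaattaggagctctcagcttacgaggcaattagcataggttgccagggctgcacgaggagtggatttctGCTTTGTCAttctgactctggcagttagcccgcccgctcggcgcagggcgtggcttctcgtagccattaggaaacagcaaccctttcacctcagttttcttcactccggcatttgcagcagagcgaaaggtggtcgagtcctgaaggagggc
KEAP1 start 2: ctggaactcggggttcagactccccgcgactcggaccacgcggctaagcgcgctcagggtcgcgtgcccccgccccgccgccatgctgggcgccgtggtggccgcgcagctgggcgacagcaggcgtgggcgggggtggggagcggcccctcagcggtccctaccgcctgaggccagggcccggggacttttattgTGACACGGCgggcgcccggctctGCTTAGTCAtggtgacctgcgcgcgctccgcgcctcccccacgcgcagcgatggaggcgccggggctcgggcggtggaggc
SRXN1: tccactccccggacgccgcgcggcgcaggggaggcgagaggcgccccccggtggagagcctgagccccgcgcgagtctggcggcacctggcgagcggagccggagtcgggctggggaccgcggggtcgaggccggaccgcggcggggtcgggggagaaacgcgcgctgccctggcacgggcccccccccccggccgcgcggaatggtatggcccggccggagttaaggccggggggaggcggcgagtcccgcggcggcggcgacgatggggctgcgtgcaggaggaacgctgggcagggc
The GCLM match began 34 bases before the start site and the second KEAP1 match 31 bases before it, and both read GCTTAGTCA. The SRXN1 window is shown because SRXN1 was the member whose groups did not overlap. The core was not in that window, nor in those of NQO1, GCLC, both NFE2L2 starts and KEAP1 start 1. Sequence outside the windows was not searched, and a link between the core and the level of a gene was not tested. 

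Estimated depths ran from 33900000 to 40700000 fragments per library. PHF5A itself had 41.4, 45.9 and 45.0 FPKM in K29Q 1 to 3, against 32.4, 34.4 and 32.7 FPKM in WT 1 to 3, and gene totals do not separate the introduced from the endogenous RNA. Epithelial markers were abundant: all 8 passed the filter, led by KRT19, and their summed FPKM was 1176 to 1233 in K29Q and 1275 to 1446 in WT. Of 9 fibroblast and endothelial markers 1 passed, and the list summed to 4.86 to 6.24 FPKM in K29Q and 4.76 to 5.68 FPKM in WT, with DCN and LUM listed at 0. Of 8 leukocyte markers 1 passed, and the list summed to 2.53 to 2.94 FPKM in K29Q and 2.33 to 3.09 FPKM in WT, with CD3D listed at 0. WT 1 stood apart from WT 2 and WT 3: along principal component 1, which held 34.1% of the variance, it lay at -4.72, beside K29Q 1 to 3 at -4.76, -6.81 and -14.92, against 13.22 and 17.99 for WT 2 and WT 3. A run name in the column headers was taken to be a flow cell, with K29Q 1, K29Q 2 and WT 2 on A and with K29Q 3, WT 1 and WT 3 on B.

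None of the 9 genes passed the test between K29Q and WT cells. The test was limma on log2(FPKM + 1), with p-values adjusted by the Benjamini-Hochberg method over all 13261 genes and a threshold of 0.05, at which 0.0528% of all genes (7) were called. The smallest adjusted p among the 9 was 0.325 (limma), for SRXN1. The unadjusted p was under 0.05 for 1 of 9 members (11.1%), against 12.5% of all tested genes. The groups did not overlap for 1 of 9 members (11.1%), against 17.8% of all tested genes. The single member was SRXN1 in both counts, and with 9 genes neither share can be set apart from the background. An exact permutation test of 3 against 3 libraries cannot give a p under 0.1, and among the members only SRXN1 reached that value.

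The plot of FPKM by library shows a wide range of levels within the pathway. NQO1 was the most abundant of the 9, with means of 76.7 FPKM in K29Q and 82.0 FPKM in WT. TXNRD1, SRXN1 and KEAP1 followed in that order in both groups, and no 2 neighbours from NQO1 to KEAP1 overlapped over the 6 libraries. SLC7A11, HMOX1, GCLM and GCLC lay between 4.90 and 9.01 FPKM in all 6 libraries, and neighbours in that order overlapped. SLC7A11 came before HMOX1 in K29Q, and HMOX1 before SLC7A11 in WT. NFE2L2 was the least abundant of the 9, with means of 3.54 and 3.13 FPKM in K29Q and WT cells, and did not overlap GCLC above it.

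**Figure D1:**
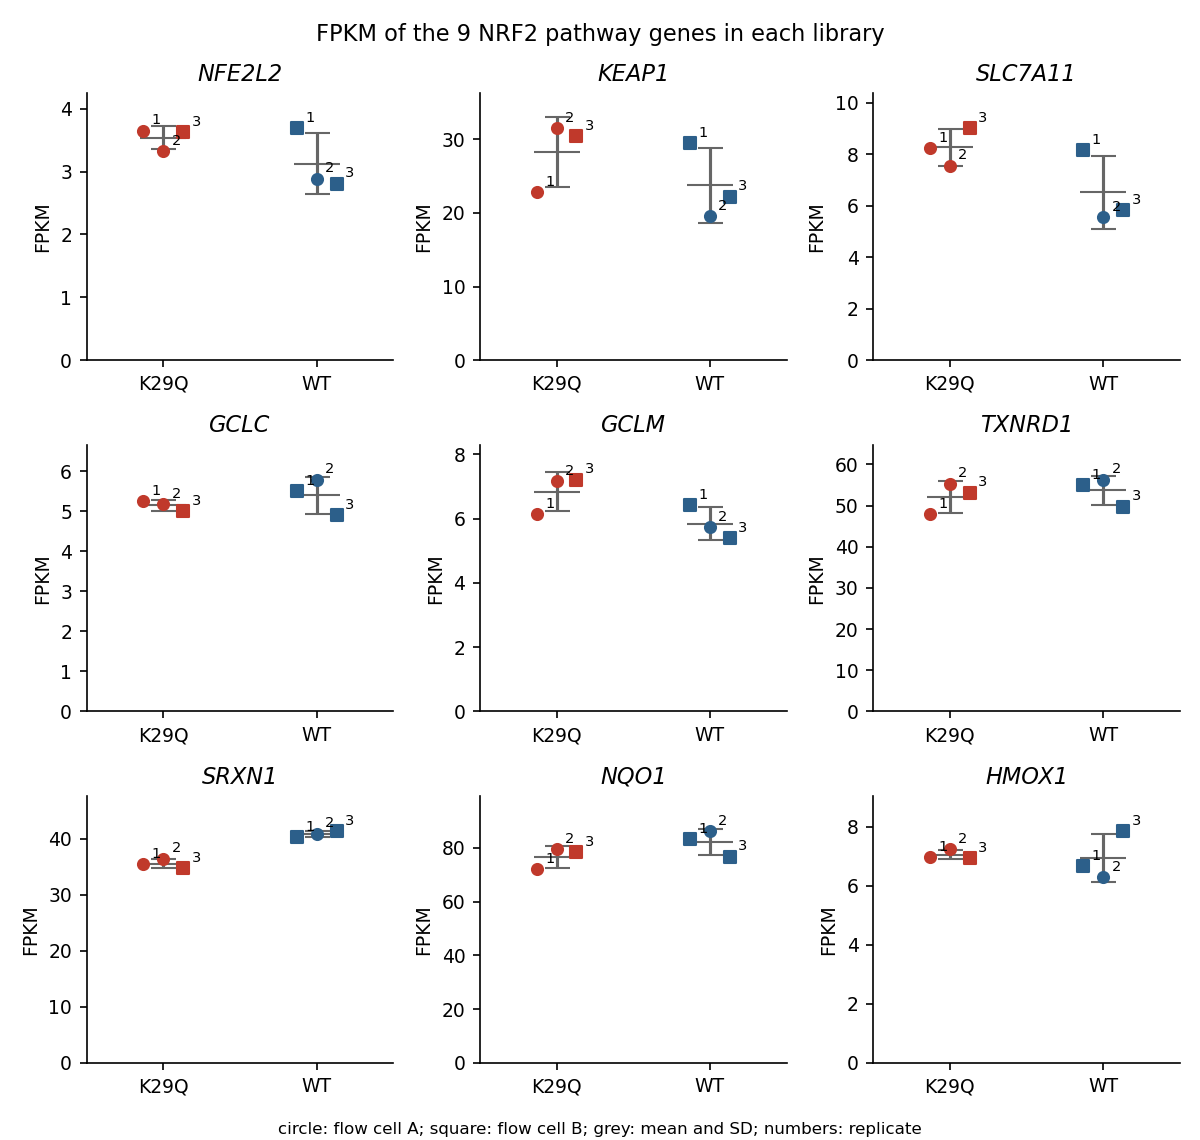
FPKM (linear axis from 0) of each of the 9 genes, with 1 point per library numbered by replicate, K29Q in red and WT in blue, circles for flow cell A and squares for flow cell B, and the group mean ± SD in grey (n = 3 each). The K29Q and WT points of SRXN1 do not overlap, from 34.8 to 36.5 FPKM in K29Q and from 40.4 to 41.4 FPKM in WT, while the points of the other 8 genes do.

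NFE2L2 and KEAP1, the regulator and its inhibitor, both had higher means in K29Q, and both groups overlapped. NFE2L2 (ENSG00000116044, chromosome 2 from 177227595 to 177392697, GRCh38, minus strand, protein coding) had 3.65, 3.33 and 3.63 FPKM in K29Q 1 to 3, against 3.69, 2.89 and 2.81 FPKM in WT 1 to 3. WT 1 was the highest of the 6 libraries and the other WT libraries were the lowest. The means were 3.54 ± 0.182 in K29Q and 3.13 ± 0.488 in WT (SD, n = 3 each), a ratio of 1.13. The difference on the log2 scale was 0.14 (SE 0.096, 95% confidence interval -0.08 to 0.37, limma, adjusted p = 0.56). It was 0.24 without WT 1 (adjusted p = 0.136), 0.10 without WT 2 and 0.09 without WT 3. The annotated NFE2L2 gene overlaps the ether lipid enzyme gene AGPS on the opposite strand, and the strand setting of the counting is not given in the sources used here, so reads of NFE2L2 and AGPS cannot be told apart where the genes overlap. AGPS had 9.17, 9.87 and 9.91 FPKM in K29Q 1 to 3, against 9.99, 7.97 and 8.07 FPKM in WT 1 to 3, with WT 1 highest here too.

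KEAP1 (ENSG00000079999, chromosome 19 from 10486120 to 10503741, minus strand, protein coding) had 22.8, 31.5 and 30.5 FPKM in K29Q 1 to 3, against 29.5, 19.6 and 22.2 FPKM in WT 1 to 3. K29Q 1 lay beside WT 3, and WT 1 lay beside K29Q 2 and 3. The means were 28.3 ± 4.76 in K29Q and 23.8 ± 5.12 in WT (SD, n = 3 each), a ratio of 1.19. The log2 fold change of 0.25 had the widest 95% confidence interval of the 9, from -0.16 to 0.66 (SE 0.17, limma, adjusted p = 0.572). The value was 0.39 without K29Q 1, 0.41 without WT 1, 0.16 without K29Q 2 and 0.12 without WT 2, and 0 of these passed the threshold.

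The glutathione branch begins with SLC7A11, the light chain of the cystine and glutamate exchanger that imports cystine. SLC7A11 (ENSG00000151012, chromosome 4 from 138164097 to 138242349, minus strand, protein coding) had 8.23, 7.56 and 9.01 FPKM in K29Q 1 to 3, against 8.15, 5.57 and 5.83 FPKM in WT 1 to 3. All 3 K29Q libraries lay above WT 2 and WT 3, and WT 1 lay inside the K29Q range. The means were 8.26 ± 0.727 in K29Q and 6.52 ± 1.42 in WT (SD, n = 3 each), a ratio of 1.27 and the highest of the 9. In log2 terms the difference was 0.31 (SE 0.14, 95% confidence interval -0.01 to 0.64, limma, adjusted p = 0.403). It was 0.47 without WT 1, still short of the threshold (adjusted p = 0.0706). SLC7A11 also has a long, AT-rich RNA, with 9645 nt and a GC content of 35.4% in its longest annotated transcript. Over all tested genes the median log2 fold change was 0.15 for the 1873 genes with a GC content up to 40% and -0.05 for the 2273 genes over 60%. With the dependence on GC and transcript length removed together from every library, the SLC7A11 value was 0.10 (limma, adjusted p = 0.492). The separate parts of GC and of length in that move were not tested.

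GCLC and GCLM, the catalytic and the modifier subunit of glutamate-cysteine ligase, make the first and limiting step of glutathione synthesis. GCLM (ENSG00000023909, chromosome 1 from 93885205 to 93909456, minus strand, protein coding) had 6.14, 7.17 and 7.21 FPKM in K29Q 1 to 3, against 6.42, 5.73 and 5.40 FPKM in WT 1 to 3. Only WT 1 and K29Q 1 were out of order between the groups. The means were 6.84 ± 0.608 in K29Q and 5.85 ± 0.519 in WT (SD, n = 3 each), a ratio of 1.17. The log2 fold change was 0.20 (95% confidence interval -0.01 to 0.40, SE 0.088, limma, adjusted p = 0.42). It moved to 0.04 after the GC and length correction. The longest GCLM transcript has 4857 nt and a GC content of 37.3%. GCLC (ENSG00000001084, chromosome 6 from 53497341 to 53616970, minus strand, protein coding) had 5.26, 5.18 and 5.01 FPKM in K29Q 1 to 3, against 5.51, 5.80 and 4.90 FPKM in WT 1 to 3. The K29Q libraries lay inside the WT range, and the log2 fold change was -0.06 (95% confidence interval -0.23 to 0.12, SE 0.073, adjusted p = 0.765). The value was -0.01 without WT 2 and -0.11 without WT 3.

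In the thioredoxin branch TXNRD1, the cytosolic thioredoxin reductase, showed overlapping groups, and SRXN1, the sulfiredoxin that repairs overoxidised peroxiredoxins, showed separate ones. SRXN1 (ENSG00000271303, chromosome 20 from 646615 to 653370, minus strand, protein coding) had 35.5, 36.5 and 34.8 FPKM in K29Q 1 to 3, against 40.4, 40.95 and 41.4 FPKM in WT 1 to 3. Here WT 1 lay with the other WT libraries, and every K29Q library lay below every WT library. The means were 35.6 ± 0.848 in K29Q and 40.9 ± 0.519 in WT (SD, n = 3 each), a ratio of 0.87. The log2 fold change was -0.20 (95% confidence interval -0.32 to -0.07, SE 0.053), with an unadjusted p of 0.00816 in limma, and it did not pass over all genes (adjusted p = 0.325). By unadjusted p SRXN1 ranked 333 among 13261 genes. The exact permutation p was 0.1, the smallest this design allows. The value was -0.18 on flow cell A alone, -0.23 on B alone and -0.14 after the GC and length correction (adjusted p = 0.19).

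TXNRD1 (ENSG00000198431, chromosome 12 from 104215779 to 104350305, plus strand, protein coding) had 47.9, 55.3 and 53.2 FPKM in K29Q 1 to 3, against 55.0, 56.3 and 49.7 FPKM in WT 1 to 3. The groups overlapped, with K29Q 1 the lowest and WT 2 the highest library. Its log2 fold change was -0.04 (95% confidence interval -0.23 to 0.15, SE 0.079, limma, adjusted p = 0.847), and its sign turned within flow cell B (0.02), without K29Q 1 (0.02) and with quantile normalization (0.01). The TXNRD1 gene overlaps the ribosomal protein pseudogene RPL18AP3 on the same strand, which had 15.3, 13.7 and 16.2 FPKM in K29Q 1 to 3, against 22.2, 23.1 and 16.9 FPKM in WT 1 to 3, so the division of reads between TXNRD1 and RPL18AP3 is uncertain.

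NQO1 and HMOX1, often used as readouts of NRF2 activity, had overlapping groups. NQO1, a quinone reductase (ENSG00000181019, chromosome 16 from 69706996 to 69726951, minus strand, protein coding), had 72.0, 79.5 and 78.5 FPKM in K29Q 1 to 3, against 83.2, 86.2 and 76.7 FPKM in WT 1 to 3. WT 3 lay below 2 of the K29Q libraries. The means were 76.7 ± 4.11 in K29Q and 82.0 ± 4.88 in WT (SD, n = 3 each). The log2 fold change was -0.10 (95% confidence interval -0.26 to 0.07, SE 0.071, limma, adjusted p = 0.589). HMOX1, the inducible heme oxygenase (ENSG00000100292, chromosome 22 from 35380361 to 35394214, plus strand, protein coding), had 6.98, 7.23 and 6.95 FPKM in K29Q 1 to 3, against 6.66, 6.29 and 7.85 FPKM in WT 1 to 3. The 3 K29Q libraries lay inside the WT range. Its log2 fold change was 0.03 (95% confidence interval -0.17 to 0.23, SE 0.084, limma, adjusted p = 0.918), and its sign turned within flow cell B (-0.05), without WT 2 (-0.03) and with quantile normalization (-0.001).

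Side by side, the 9 log2 fold changes lay on both sides of 0, with 5 above and 4 below, a median of 0.03 and a range from -0.20 (SRXN1) to 0.31 (SLC7A11). Over all 13261 tested genes 51.0% lay above 0 and the median was 0.00305. Within flow cell A the differences were 0.21 for NFE2L2, 0.43 for KEAP1, 0.44 for SLC7A11, 0.18 for GCLM, -0.13 for GCLC, -0.13 for TXNRD1, -0.19 for NQO1 and 0.15 for HMOX1. Within flow cell B they were 0.13 for NFE2L2, 0.24 for KEAP1, 0.34 for SLC7A11, 0.25 for GCLM, -0.04 for GCLC and -0.02 for NQO1. Those of SRXN1, NFE2L2, KEAP1, SLC7A11, GCLM, GCLC and NQO1 had the same sign in both flow cells, and each flow cell held only 1 library of 1 of the groups. Log2 fold changes as large as 1 in either direction lay outside the 95% confidence interval of each of the 9 genes.

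**Figure D2:**
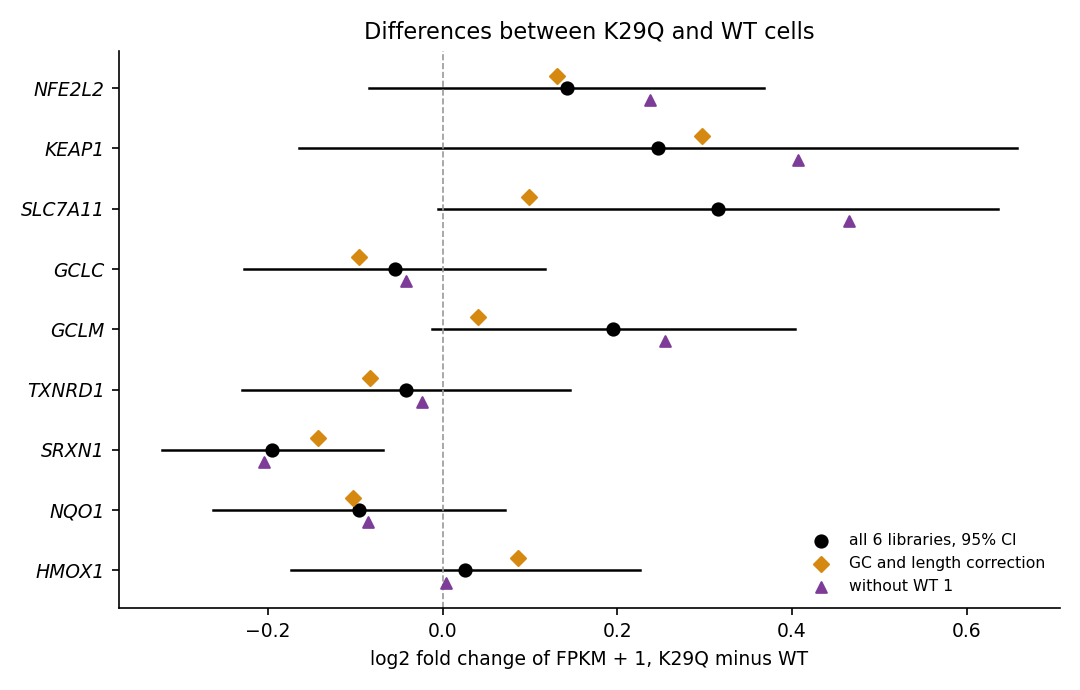
Log2 fold change of FPKM + 1 (x axis, K29Q minus WT) of the 9 genes, as black points with 95% confidence intervals from limma over all 6 libraries, orange diamonds after the GC and length correction, and purple triangles without WT 1. The SRXN1 interval (-0.32 to -0.07) lies wholly below 0, unadjusted for the number of genes tested, and SLC7A11 spreads from 0.10 with the correction to 0.47 without WT 1.

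The position of WT 1 was not the same for all members, and it was not particular to them. For 4 of the 9 genes (NFE2L2, KEAP1, GCLM and SLC7A11) the WT 1 value lay nearer to the K29Q mean than to the mean of WT 2 and WT 3, as it did for 60.4% of all tested genes. For SRXN1, NQO1, HMOX1, TXNRD1 and GCLC it lay nearer to the other WT libraries. The 4 genes were those with the highest log2 fold changes of the 9, and without WT 1 their values were 0.24, 0.41, 0.25 and 0.47. Leaving out a WT value that lies nearer to K29Q widens the difference by construction, so these rises are no separate finding. The part of WT 1 in these results beyond these values was not tested. The slope of the log2 value on GC content was -0.04 per 10% in WT 1, inside the range of 0.02, -0.06 and -0.07 in K29Q 1 to 3, against 0.03 and 0.12 in WT 2 and WT 3.

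**Figure D3:**
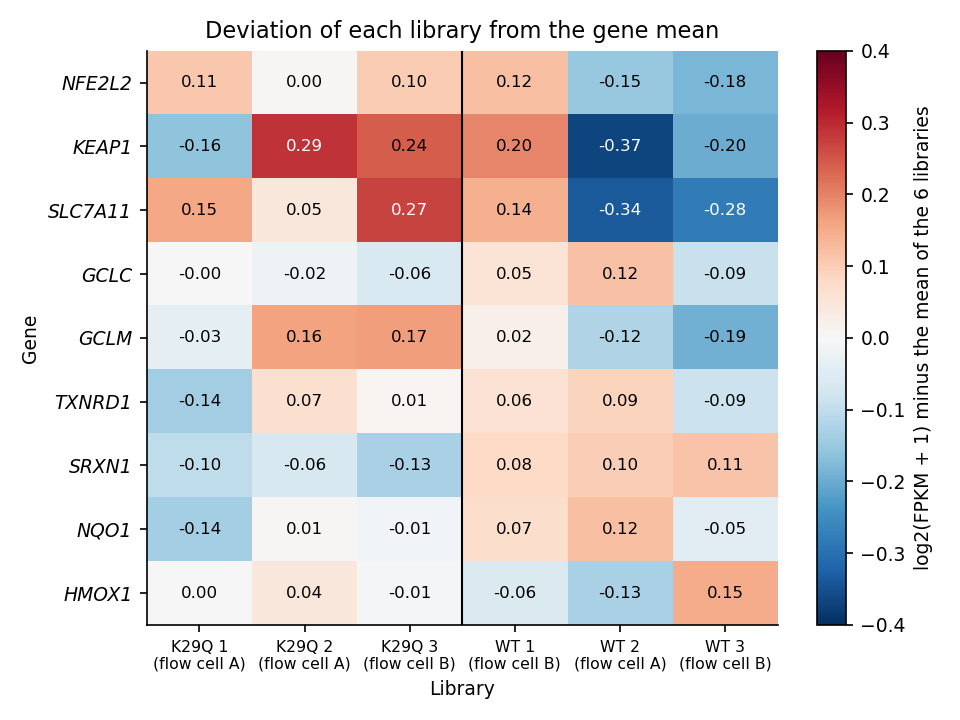
Deviation of each library (x axis, with its flow cell) from the mean of the 6 libraries for each of the 9 genes (rows), in log2(FPKM + 1), with red above and blue below the mean. In the SLC7A11 row WT 1 (0.14) has the color of K29Q 1 to 3 (0.15, 0.05 and 0.27) and WT 2 and WT 3 are blue (-0.34 and -0.28), while in the SRXN1 row K29Q and WT libraries split cleanly.

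The other genes of the pathway came from 9 lists that together held 103 gene IDs, of which 88 passed the filter. Of the 88, 30 had positive and 58 negative log2 fold changes (median -0.04), and 0 passed the limma threshold in either direction, against 0.0528% of all tested genes. At an unadjusted p under 0.05 there were 4 higher and 8 lower (limma), against 1015 higher and 649 lower of all 13261 tested genes. The groups did not overlap for 25 of the 88, against 2361 of all 13261 tested genes (17.8%). Of the 25, 7 were higher and 18 lower in K29Q, against 1167 higher and 1194 lower of the 2361. Genes named from each list below were picked for its smallest p in these data (ALAS1, FTL, ATF4 and genes below the filter excepted). Groups without overlap among these named genes follow in part from that choice and are no separate finding. Stromal and leukocyte markers other than COL1A1 and CD68 were below the filter, while 4 of 8 epithelial markers (CDH1, KRT8, KRT18 and KRT19) were lower in K29Q without overlap, CLDN4 was lower with overlap, EPCAM, CLDN3 and CLDN7 lay above 0 with overlap, and 0 of the 8 passed. The part of these markers in the list values was not tested.

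Among the 12 measured NRF2 partners and controllers 6 lay above 0 and 6 below, with a median of 0.03 and 0 called. BACH1, a heme-sensing repressor that competes with NRF2 for the same elements, had 2.58, 2.33 and 2.74 FPKM in K29Q 1 to 3, against 2.19, 1.69 and 1.62 FPKM in WT 1 to 3. Every K29Q library lay above every WT library, by 1.39-fold on average (0.33 on the log2 scale, SE 0.097, limma, adjusted p = 0.345), and the GC and length correction brought it to 0.18. NFE2L1, which codes for the related factor NRF1, had 34.6, 29.9 and 36.8 FPKM in K29Q 1 to 3, against 40.9, 43.1 and 42.7 FPKM in WT 1 to 3. Its groups did not overlap either, with 0.80 times the WT mean in K29Q (log2 -0.32, SE 0.084; limma adjusted p = 0.321), or -0.41 on flow cell A alone and -0.18 on B alone. GSK3B, a kinase that marks NRF2 for destruction independently of KEAP1, averaged 15.9 FPKM in K29Q and 14.3 FPKM in WT (adjusted p = 0.438).

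Of 16 measured genes of glutathione synthesis and use 5 lay above 0 and 11 below, with a median of -0.04. GSS, the second enzyme of glutathione synthesis, had 33.7, 35.5 and 33.2 FPKM in K29Q 1 to 3, against 37.5, 40.1 and 39.7 FPKM in WT 1 to 3, a ratio of 0.87 with no overlap (limma, adjusted p = 0.36). SLC3A2, the heavy chain that carries SLC7A11 to the cell surface, had 34.4, 33.1 and 33.6 FPKM in K29Q 1 to 3, against 34.9, 38.8 and 39.0 FPKM in WT 1 to 3 (log2 fold change -0.15, adjusted p = 0.402). The mean of the heavy chain was lower in K29Q and that of the light chain higher, but the SLC7A11 groups overlapped, and neither gene passed. After the GC and length correction the log2 fold changes were -0.09 for SLC3A2 and 0.10 for SLC7A11. GSTM4, a glutathione transferase, averaged 1.81 FPKM in K29Q and 2.09 FPKM in WT (adjusted p = 0.426).

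Of 15 measured thioredoxin, glutaredoxin and peroxiredoxin genes 4 lay above 0 and 11 below, with a median of -0.05. The glutaredoxin GLRX had 4.69, 5.17 and 4.97 FPKM in K29Q 1 to 3, against 4.55, 3.996 and 4.19 FPKM in WT 1 to 3 (log2 fold change 0.18, limma, adjusted p = 0.389). GLRX3, which helps build iron-sulfur proteins, averaged 9.99 FPKM in K29Q and 11.2 FPKM in WT (adjusted p = 0.392). PRDX2, a cytosolic peroxiredoxin and substrate of SRXN1, had 61.9, 60.2 and 62.0 FPKM in K29Q 1 to 3, against 64.7, 69.0 and 68.9 FPKM in WT 1 to 3, without overlap (log2 fold change -0.14, adjusted p = 0.394). Of the 9 genes that supply NADPH 3 lay above 0 and 6 below, with a median of -0.04 that turned to 0.01 after the GC and length correction. MTHFD1 averaged 17.0 FPKM in K29Q and 19.0 FPKM in WT, PGD of the pentose phosphate pathway 69.8 and 64.2 FPKM, and IDH2 15.8 and 17.1 FPKM in K29Q and WT, with limma adjusted p of 0.404, 0.502 and 0.569.

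Of 13 measured quinone, carbonyl and phase II enzymes 7 lay above 0 and 6 below, with a median of 0.02. CBR3, a carbonyl reductase, had 1.27, 1.23 and 1.33 FPKM in K29Q 1 to 3, against 1.79, 1.67 and 1.52 FPKM in WT 1 to 3, a ratio of 0.77 without overlap (limma, adjusted p = 0.365). PIR, an iron-containing nuclear protein and known NRF2 target, averaged 10.4 FPKM in K29Q and 9.17 FPKM in WT (adjusted p = 0.396), and PTGR1, which reduces prostaglandins and leukotrienes, 12.5 FPKM in K29Q and 13.8 FPKM in WT (adjusted p = 0.408). The aldo-keto reductases AKR1B10, AKR1C1, AKR1C2 and AKR1C3 were below the filter. Multidrug transporters lay on both sides, with 2 of 4 above 0. ABCC2, an efflux pump for glutathione conjugates, had 31.6, 33.8 and 34.5 FPKM in K29Q 1 to 3, against 28.2, 27.6 and 24.98 FPKM in WT 1 to 3, a ratio of 1.24 without overlap (log2 fold change 0.30, adjusted p = 0.269), while ABCC3 averaged 3.75 and 4.32 FPKM (adjusted p = 0.409) and ABCC4 5.54 and 5.03 FPKM (adjusted p = 0.565) in K29Q and WT.

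The heme and iron list was the one with all its measured genes on one side: 8 of 8 lay below 0, with a median of -0.13, and 0 passed. After the GC and length correction the median was -0.08, and ALAS1 (0.03) and FTL (0.01) lay above 0. FTH1, the heavy chain of the iron store ferritin, had 328, 391 and 356 FPKM in K29Q 1 to 3, against 555, 435 and 505 FPKM in WT 1 to 3. The groups did not overlap, with 0.72 times the WT mean in K29Q (log2 -0.47, SE 0.11; limma adjusted p = 0.248), or -0.28 on flow cell A alone and -0.57 on B alone. FTH1 has many processed pseudogenes, so its reads may be divided among them. Of the biliverdin reductases, BLVRB averaged 51.1 FPKM in K29Q and 58.5 FPKM in WT (limma, adjusted p = 0.379), and BLVRA 17.6 and 19.2 FPKM in K29Q and WT (adjusted p = 0.46). Of SOD1, SOD2 and CAT, which remove superoxide and peroxide, 1 lay above 0 and 2 below, and the smallest limma adjusted p was 0.569, for SOD1.

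The ATF4 axis, the other known control of SLC7A11, had 3 of 9 measured genes above 0 and 6 below, with a median of -0.08 and 0 called. TRIB3, a pseudokinase induced by ATF4, had 6.67, 5.79 and 8.85 FPKM in K29Q 1 to 3, against 10.6, 11.7 and 11.2 FPKM in WT 1 to 3, a ratio of 0.64 without overlap (log2 fold change -0.60, SE 0.13, limma, adjusted p = 0.242). On flow cell A alone the TRIB3 difference was -0.81, and on B alone -0.27. SESN2, a stress-induced regulator of growth signalling, averaged 8.82 FPKM in K29Q and 9.91 FPKM in WT (adjusted p = 0.408), and DDIT4 185 and 163 FPKM in K29Q and WT (adjusted p = 0.414). ATF4 itself averaged 130 FPKM in K29Q and 129 FPKM in WT.

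**Figure D4:**
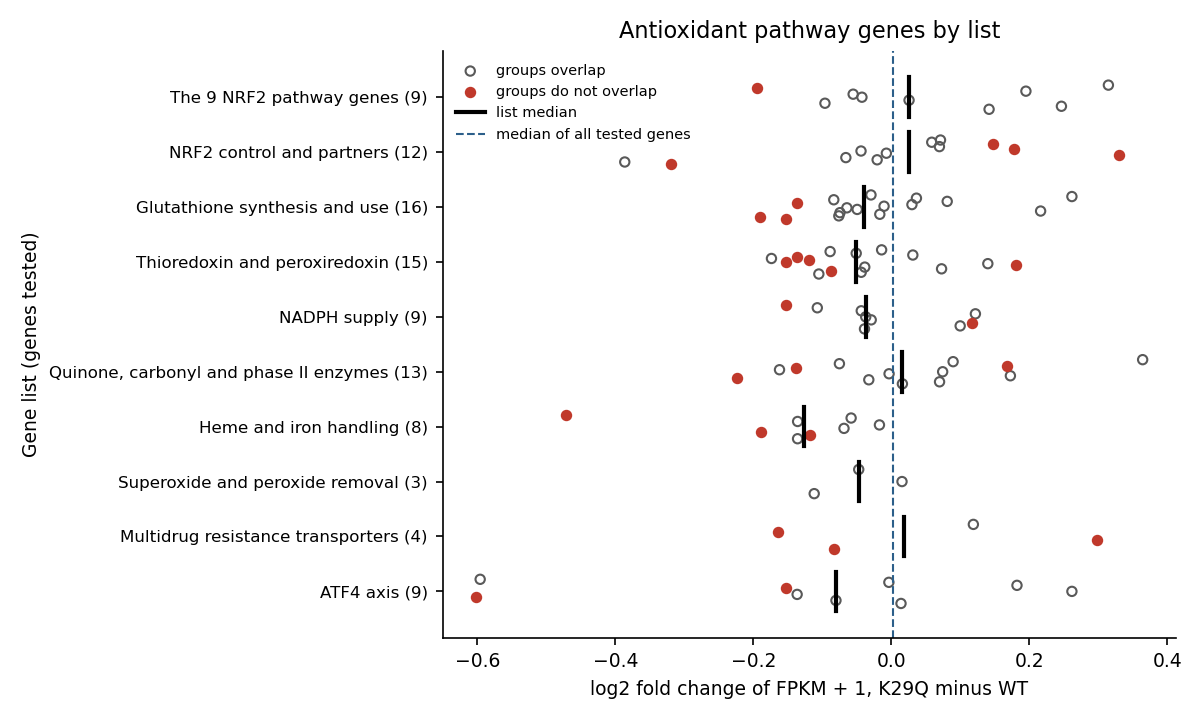
Log2 fold change of FPKM + 1 (x axis, K29Q minus WT) of every measured gene in the 9 members and in each of the 9 pathway lists (rows, number of genes tested in parentheses), filled red where the K29Q and WT libraries do not overlap and open where they do, with list medians as black bars and the median of all tested genes as a dashed line. The medians run from -0.13 (heme and iron handling) to 0.03 (the 9 NRF2 pathway genes, and NRF2 control and partners), and 0 of the genes plotted passed the test.

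The genes whose profile over the 6 libraries lay nearest to that of a member were found by the root mean square difference of log2(FPKM + 1) values, each gene centred on its own mean. For NFE2L2 these were UEVLD, ACAP2 and the myosin MYO6, each at a difference of 0.018 to 0.020. Each had WT 1 as its highest library, as NFE2L2 did, which follows from choosing them by these same 6 libraries and is no separate finding. MYO6 had 9.31, 8.78 and 9.46 FPKM in K29Q 1 to 3, against 9.68, 7.53 and 7.41 FPKM in WT 1 to 3. For SLC7A11 they were the cohesin regulator PDS5A, the actin-binding protein ANLN and the fatty acyl-CoA reductase FAR1, at 0.012 to 0.013. ANLN, which acts in cytokinesis, had 32.3, 29.2 and 34.4 FPKM in K29Q 1 to 3, against 31.1, 22.3 and 23.4 FPKM in WT 1 to 3. After the GC and length correction UEVLD, ACAP2 and MYO6 had log2 fold changes of -0.01, -0.02 and -0.005, against 0.13 for NFE2L2. PDS5A, ANLN and FAR1 then had 0.20, 0.21 and 0.07, against 0.10 for SLC7A11.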

How the data were processed

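Libraries from total RNA of HCT116 cells (3 K29Q, 3 WT) were sequenced. The table the authors deposited holds FPKM values, per the file headers. The submitters' processing notes name HISAT2 2.1.0, StringTie and the build GRCh38. Their settings, the annotation and strand handling were not given in the sources used here. Columns of other samples numbered 0. FPKM are not counts, so the 13261 genes that reached 1 FPKM in 3 or more libraries were tested on log2(FPKM + 1) by limma 3.58.1 under R 4.3.3 (intensity trend, group as the only term, Benjamini-Hochberg adjustment over all 13261). This scale understates the change of low genes. The fit was tested on simulated data. Depth was estimated from the most common product of FPKM and length among single-exon genes over 600 nt, taken to be 1 fragment. Positions, transcript lengths and GC content came from GENCODE 29 on GRCh38 by gene ID (13124 of the tested IDs were found).

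The members and lists were chosen with earlier results of these data known, so lists are described by counts and medians and get no test. Named genes were the members, PHF5A, up to 3 genes with the smallest p per list, and the 3 profiles nearest to NFE2L2 and to SLC7A11. AGPS, RPL18AP3, ATF4, ALAS1, FTL and single cell type markers were named after their values were seen. Exact two-sided permutation tests used SciPy 1.17.1. Alternatives were quantile normalization, other filters, a pseudocount of 0.1, the replicate block, a flow cell term, no intensity trend, GC and length correction, values within flow cells, and leaving out each library.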

Additional observations from a re-analysis of the deposited data

How the results depend on the processing

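None of the 9 genes was called with the alternatives that gave a p (values within a flow cell gave none, and NFE2L2 was not tested at a mean FPKM of at least 5), and the lowest adjusted p was 0.0706 (SLC7A11 without WT 1; the range over its alternatives was 0.0706 to 0.745). The adjusted p of SRXN1 ranged from 0.136 to 0.745, and its log2 fold change from -0.21 to -0.14. Signs turned for the log2 fold change of HMOX1 (-0.000736 with quantile normalization), the log2 fold change of TXNRD1 (0.0066 with quantile normalization) and the log2 fold change of SOD2 (-0.026 with quantile normalization, -0.014 with a flow cell term, -0.128 after the GC and length correction). That correction also turned UEVLD (-0.0056), ACAP2 (-0.022) and MYO6 (-0.0048). With 1 library left out HMOX1 ranged from -0.033 to 0.107 (lowest without WT 2), TXNRD1 from -0.096 to 0.016 (highest without K29Q 1) and SOD2 from -0.0309 to 0.066 (lowest without WT 3). The median of the 9 was 0.15 within flow cell A, against 0.03 in all libraries, and it turned to -0.0080 without WT 2 and to -0.0083 with a mean FPKM of at least 5 (median log2 fold change of the NRF2 members). List medians turned sign for NADPH supply (0.01 with quantile normalization and 0.01 after the correction), multidrug transporters (-0.02 after the correction), quinone, carbonyl and phase II enzymes (-0.02 at a mean FPKM of at least 5, -0.01 within flow cell A), glutathione (0.0019 within flow cell B) and superoxide removal (0.05 within flow cell B). The median of the 88 list genes was -0.02 after the correction. PHF5A passed after the GC and length correction alone (adjusted p = 0.0201). Over all genes 7 were called; 13 were called with quantile normalization, 2 with no filter, 3 with the replicate block, 4 with the flow cell term and 83 after the correction, and 5 to 20 with 1 library left out (20 without WT 1, 12 without K29Q 1). The causes were not tested. The deviations of same-numbered libraries had correlations across genes of -0.14, 0.18 and -0.16. With 3 libraries per group these cannot tell whether same-numbered libraries shared a culture or day, and the labels do not say. As in the main fit, no member was called with the replicate block. Depth per gene is only an estimate, and NFE2L2, near 3 FPKM, rests on the fewest fragments per length.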

Other observations

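Ratios of FPKM within a library, chosen after the values were seen and given without a test, set pairs of pathway genes against each other. BACH1 over NFE2L2, the repressor against the activator of the same elements, was 0.7074, 0.7009 and 0.7538 in K29Q 1 to 3, against 0.5925, 0.5847 and 0.5765 in WT 1 to 3. Here WT 1 lay with the other WT libraries, although it stood apart for NFE2L2 alone. All these ratios are of uncorrected FPKM, and the genes differ in GC content (38.6% for BACH1, 45.6% for NFE2L2). After the GC and length correction the log2 fold changes were 0.18 for BACH1 and 0.13 for NFE2L2, against 0.33 and 0.14 before it. GCLM over GCLC, the modifier against the catalytic subunit, was 1.166, 1.385 and 1.439 in K29Q 1 to 3, against 1.165, 0.9883 and 1.102 in WT 1 to 3, so K29Q 1 and WT 1 were close. SLC7A11 over SLC3A2, the light against the heavy chain of the cystine exchanger, was 0.2393, 0.2285 and 0.2683 in K29Q 1 to 3, against 0.2337, 0.1433 and 0.1495 in WT 1 to 3, with WT 1 inside the K29Q range. The same correction moved the log2 fold change of SLC7A11 from 0.31 to 0.10 and that of SLC3A2 from -0.15 to -0.09. It moved GCLM from 0.20 to 0.04 and GCLC from -0.06 to -0.10. NFE2L2 over KEAP1 was 0.160, 0.1055 and 0.1191 in K29Q 1 to 3, against 0.1251, 0.1472 and 0.1263 in WT 1 to 3, and these overlapped. SRXN1 over TXNRD1 was 0.742, 0.6601 and 0.6549 in K29Q 1 to 3, against 0.7337, 0.7277 and 0.8329 in WT 1 to 3, and these overlapped too. How often the ratio of any 2 genes separates the groups was not tested.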
